A study of Mus musculus with 8 samples.

Results

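The retinas of adult C57BL/6J mice kept in 75% oxygen for 14 days were compared with those of mice of the same strain kept at normal oxygen, using 2 arrays for each group and all 45037 probe sets that do not serve as array controls. A probe set, a group of short oligonucleotides that read 1 stretch of transcript, was reported when both day 14 arrays lay on the same side of both control arrays, which is called no overlap here. All animals were adults of 80 to 120 days of age raised in dim cyclic light with 12 h of light and 12 h of darkness. Mice were placed in a chamber at normal or 75% oxygen, as the paper describes it. The methods describe retinas pooled at each time from animals of both sexes without stating if each array had a pool of its own, so p-values measure only the spread between arrays, which may be technical. The series holds 8 arrays (Affymetrix GeneChips for the mouse genome), and the 4 arrays of days 3 and 7 entered the centring and the estimate of spread and are otherwise shown only as values beside day 14. The deposited values are log2 values centred on the median of each probe set over the 8 arrays, so each value printed here is a distance in log2 units from that median. The values hold no level, and whether the defining markers of retina were abundant could not be read from them.

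Photoreceptors, the rods and cones that fill the outer retina, take up most of the oxygen that the retina uses and draw it from the choroid, a vascular bed without tight control of oxygen supply. Prolonged breathing of high oxygen is known to kill photoreceptors of this mouse strain while inner neurons are largely spared. Müller glia, which span the retina, and microglia, its resident immune cells, respond to photoreceptor damage. Müller glia then make glial fibrillary acidic protein and acute phase proteins, and microglia move toward the dying cells and take up debris.

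At day 14 the widest separations on the higher side belonged to genes of glial stress, innate immunity, glutathione metabolism and transport epithelia. On the lower side they belonged to a glycolytic enzyme, a kainate receptor subunit, a DNA repair polymerase and RNA processing proteins. Among gene groups, gliosis, microglia, complement, antioxidant enzymes and subunits of the respiratory chain lay mostly higher, whereas splicing regulators, ribbon synapse proteins, photoreceptor genes, neuronal cytoskeleton and glycolytic enzymes lay more often lower than genes at large. Olfactory receptors, given at the end, also lay mostly higher (56.4%). Their share was above those of antioxidant enzymes (52.5%) and microglia genes (54.8%) and below those of the other higher groups named here. No gene passed limma's test after adjustment, so the account below describes separations between arrays and their sizes.

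The 2 arrays labelled day 14 differed from each other in depth of change and in the 3′ to 5′ balance of some control probe sets. The SD over all probe sets was 0.186 on day 14 replicate 1 and 0.392 on day 14 replicate 2. The 3′ minus 5′ difference of the *Gapdh* control probe sets, which goes up as RNA is broken or copied less fully toward its 5′ end, was 1.43 on day 14 replicate 2 and 0.05 on day 14 replicate 1, against 0.06 and -0.19 on the controls. The other array with a high value was the one labelled day 3 replicate 2, at 1.19, and the remaining arrays lay between -0.32 and 0.12. Over all probe sets day 14 replicate 2 correlated with day 14 replicate 1 at r = 0.18 and with the array labelled day 3 replicate 2 at r = 0.74, given as a description of arrays centred together. In the study's own table of array quality it is both day 14 arrays that have a high *Gapdh* ratio and neither day 3 array, so the labels of the arrays named day 14 replicate 1 and day 3 replicate 2 may be wrong. Groups here follow the labels as deposited, and an exchange of labels was not tested. Every day 14 value below therefore means an array so labelled, values are given for each of the 2, and the part of RNA quality in any difference was not tested.

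Of the 45037 probe sets, 12472 (27.7%) were higher and 8256 (18.3%) lower at day 14 with no overlap, 46% in all. A difference of means of 2-fold or more was found for 122 higher (0.271%) and 827 lower (1.84%) probe sets, so 87.1% of these were lower, and 73.1% were lower after a further quantile normalization. A gap of 2-fold or more, that is at least 1 log2 unit between the nearest arrays of the groups, was found for 7 higher (0.0155%) and 105 lower (0.233%) probe sets. The nearest misses were a *Clec7a* probe set with a gap of 0.97 and a *Tmtc3* probe set whose gap, rounded to 1.0, lies under the threshold before rounding, while a *Cebpd* probe set at 1.03 and a *Zcchc7* probe set at 1.01 lay just inside.

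Limma across all probe sets called 0 at an adjusted p under 0.05, with 1415 higher (3.14%) and 2311 lower (5.13%) at an unadjusted p under 0.05, and its lowest adjusted p was 0.386. The methods' analysis of variance, run here on the control and day 14 arrays alone, passed 2 probe sets after adjustment. For both of them the spread within groups was close to 0, and 1 of them, a *Dcp1a* probe set, differed by -0.0214 only. The separations were unequal between the arrays. Against the control mean, 259 probe sets were lower by 1 log2 unit or more on both day 14 arrays and 40 were higher on both, whereas 1731 were lower on replicate 2 alone and 82 on replicate 1 alone. Higher by that size on replicate 2 alone were 463 probe sets, and on replicate 1 alone 42. With 2 arrays against 2, an exact two-sided permutation test of 1 value cannot give a p below 0.333.

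When the probe sets of a gene were averaged, 6100 of 18193 genes (33.5%) were higher and 2759 (15.2%) lower without overlap, and the median difference over all genes was 0.08. Gene means with a gap of 2-fold or more numbered 3 higher (0.0165%) and 5 lower (0.0275%), and those that differed by 2-fold or more 61 higher (0.335%) and 63 lower (0.346%). The shares without overlap are those against which the counts of each gene group below are read. Limma on the gene means also called 0 genes, with 810 higher (4.45%) and 647 lower (3.56%) at an unadjusted p under 0.05 and a lowest adjusted p of 0.588, and the methods' analysis of variance on gene means called 0.

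Among the 12 probe sets with the widest gaps on the higher side, a *Gsta2* probe set had a wide gap with close replicates. *Gsta2* encodes a glutathione S-transferase, which joins glutathione to reactive products of lipid oxidation. It read -0.47 and -0.66 on the controls and 0.88 and 1.0 on the day 14 arrays. Both day 14 arrays were high, and the difference was 1.51 ± 0.47 (limma SE, n = 2 arrays a group, adjusted p = 0.499). Its highest value was 1.15, on the array labelled day 7 replicate 2, while day 7 replicate 1 read -0.50. Glutathione transferase genes of 1 class are alike in sequence, so this probe set may also read its relatives. *Tspo*, a protein of the outer mitochondrial membrane used as a marker of activated microglia, read -0.44 and -0.41 on the controls and 0.67 and 1.47 at day 14. Its difference was 1.5 ± 0.30 (adjusted p = 0.405), and all 3 of its probe sets were higher without overlap. *Ch25h*, which makes 25-hydroxycholesterol in macrophages and other cells, read -0.52 and -0.80 on the controls and 0.37 and 0.51 at day 14, a difference of 1.10 ± 0.19 (adjusted p = 0.386).

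*Gfap*, the intermediate filament of reactive glia, read -1.02 and -1.32 on the controls, 0.24 on day 14 replicate 1 and 2.58 on day 14 replicate 2. The day 14 arrays stood far apart, so the difference of 2.59 ± 1.08 (adjusted p = 0.604) rested mostly on replicate 2. The same held for *Cebpd*, a transcription factor of the acute phase response, with -0.47 and -1.28 on the controls and 0.56 and 2.29 at day 14. *Clec7a*, the β-glucan receptor dectin-1 of myeloid cells, read -0.51 and -0.67 on the controls and 0.46 and 1.97 at day 14. *A2m*, a protease inhibitor of plasma, read -0.90 and -0.32 on the controls and 0.55 and 1.28 at day 14. In all 3 the lower of the day 14 arrays still lay above both controls.

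Another 4 of the 12 were a calmodulin relative, an anion exchanger, a chloride channel and a secreted peptide. *Calml4*, a relative of calmodulin, read -0.41 and -0.20 on the controls and 1.06 and 0.92 at day 14, a difference of 1.30 ± 0.39. *Slc26a7*, an anion exchanger, read -0.48 and -0.24 on the controls and 0.94 and 0.68 at day 14, a difference of 1.17 ± 0.46. *Best2*, a chloride channel of the ciliary epithelium, read -0.12 and 0.12 on the controls and 0.91 and 1.09 at day 14, a difference of 1.0 ± 0.22. *Edn3*, the peptide endothelin 3, read -0.89 and -0.67 on the controls and 0.31 and 0.22 at day 14. In each of these the day 14 arrays lay within 0.5 of each other and apart from both controls. For *Edn3*, however, none of the other 3 probe sets was higher and 1 was lower without overlap. The last of the 12, *Smpdl3a*, a phosphodiesterase related to acid sphingomyelinase, read -0.03 and -0.10 on the controls and 0.81 and 0.86 at day 14, a difference of 0.90 ± 0.17 (adjusted p = 0.386). Over all 12 the day 14 arrays lay within 0.5 of each other in 7, and adjusted p ran from 0.386 to 0.610.

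**Figure D1:**
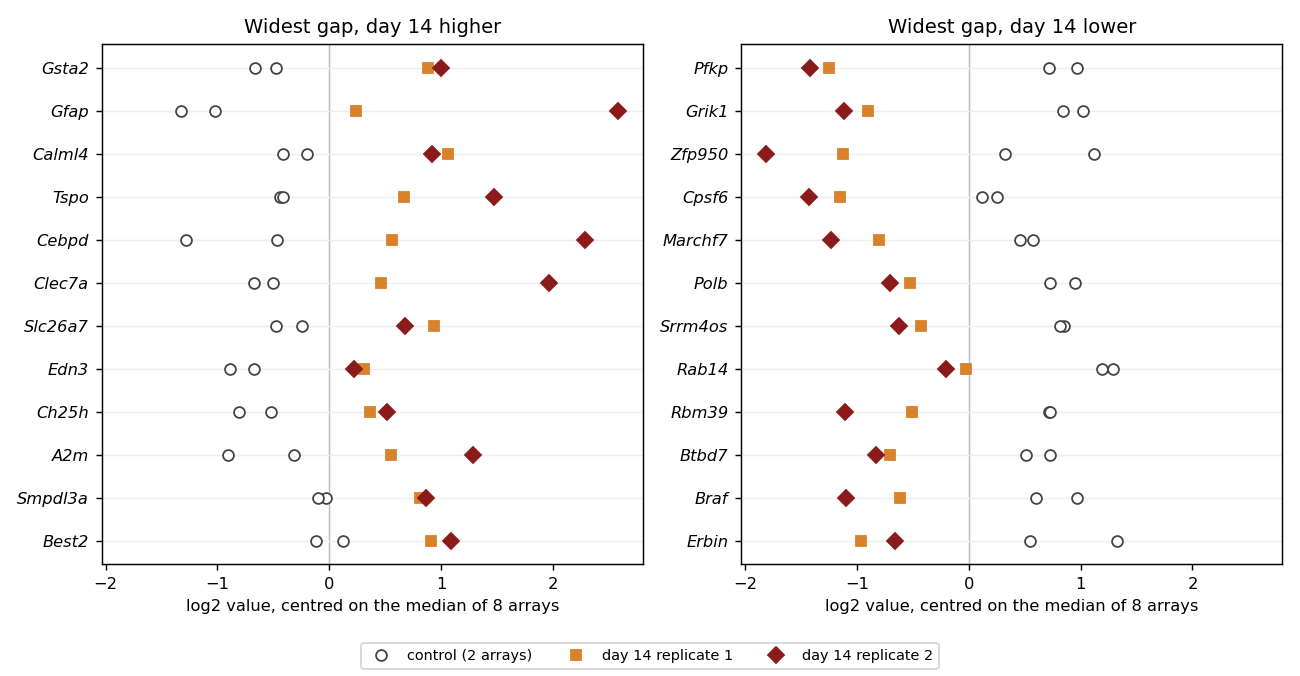
Centred log2 values of the 12 probe sets with the widest gap on the higher side (left) and on the lower side (right), with 1 point for each of the 2 control and 2 day 14 arrays. Open circles are the controls, squares day 14 replicate 1 and diamonds day 14 replicate 2. *Gfap*, *Cebpd* and *Clec7a* show the array labelled day 14 replicate 2 far above replicate 1, whereas *Pfkp*, *Grik1* and *Polb* show both day 14 arrays together below the controls.

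On the lower side the gaps were wider, from 1.20 to 1.96, and the day 14 arrays lay within 0.5 of each other in 10 of the 12. *Pfkp*, a subunit of phosphofructokinase, which commits sugar to glycolysis, read 0.71 and 0.96 on the controls and -1.25 and -1.42 at day 14. The difference was -2.17 ± 0.29 (limma SE, adjusted p = 0.386), and its other probe sets differed by -0.89 and -1.68. The last of these overlapped, at -0.30 and 0.76 on the controls and -0.27 and -2.64 at day 14. *Grik1*, a kainate receptor subunit of OFF bipolar cells, read 0.84 and 1.02 on the controls and -0.90 and -1.11 at day 14, a difference of -1.94 ± 0.28, while its other probe set differed by 0.02. *Polb*, the polymerase of base excision repair, read 0.72 and 0.95 on the controls and -0.52 and -0.70 at day 14, a difference of -1.45 ± 0.21. Of the 3 other *Polb* probe sets 1 was lower without overlap, and they ran from -1.24 to -0.01. In the named probe sets of *Pfkp*, *Grik1* and *Polb* both day 14 arrays were low by a like amount.

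RNA processing was represented by *Cpsf6*, a subunit of the complex that cuts messenger RNA before polyadenylation, and by *Rbm39*, a splicing regulator. *Cpsf6* read 0.25 and 0.12 on the controls and -1.15 and -1.43 at day 14, a difference of -1.47 ± 0.37, but only 2 of its 6 probe sets were lower without overlap and the 6 ran from -1.47 to 0.33. *Rbm39* read 0.71 and 0.73 on the controls and -0.50 and -1.11 at day 14. *Srrm4os*, a noncoding transcript opposite the gene of a neuronal splicing factor, read 0.85 and 0.81 on the controls and -0.43 and -0.63 at day 14. Probe sets of overlapping opposite transcripts are told apart only by the strand that their oligonucleotides match.

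Signaling and trafficking genes made up much of the rest. *Braf*, a kinase of the MAP kinase cascade, read 0.60 and 0.97 on the controls and -0.61 and -1.09 at day 14, a difference of -1.63 ± 0.27, and all 8 of its other probe sets also gave a lower mean. *Rab14*, a GTPase of endosomes, read 1.20 and 1.29 on the controls and -0.03 and -0.20 at day 14. *Marchf7*, a ubiquitin ligase, differed by -1.54 ± 0.19. *Erbin*, a scaffold at cell junctions, differed by -1.75 ± 0.32, and *Btbd7*, a BTB domain protein, by -1.39 ± 0.18. Among other probe sets of the same gene, 1 of 6 was lower without overlap for *Rab14* and 2 of 4 for *Marchf7*. For *Erbin* it was 2 of 3 and for *Btbd7* 1 of 3, and those of *Btbd7* ran from -0.20 to 0.07. The zinc finger gene *Zfp950* differed by -2.19 ± 0.46, with 0.32 and 1.12 on the controls and -1.13 and -1.82 at day 14, and its 3 probe sets were lower by -2.19 to -0.07. Adjusted p over the 12 ran from 0.386 to 0.499.

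The promoters of these 24 genes were read for letters of factors known from glial stress and from photoreceptors, the STAT factors (TTCNNNGAA) and CRX, a photoreceptor homeobox factor (TAATCC), on both strands of the 250 bases before each RefSeq start site. The 2 sets of letters can overlap by at most a few bases, and no window of these genes held both. Windows were found for 6 of the 12 higher genes (7 windows) and 9 of the 12 lower genes (10 windows). The STAT letters stood in 1 of 7 windows of higher genes and 0 of 10 of lower genes, against 7.02% of all 32851 promoters of that length. The CRX letters stood in 0 of 7 and 2 of 10, against 6.25%. The windows that held a match are printed below from the RefSeq table of the GRCm38.p6 build, 5′ to 3′ on the strand of the gene and ending at the base before the start site, with the matched letters in capitals. They are shown because each belongs to a gene whose groups were widely apart, and a match of letters does not show that a factor binds. The *Calml4* window is chr9:62857854-62858103 on the plus strand, with its STAT letters starting 226 bases before the start site. The *Pfkp* window is chr13:6648772-6649021 on the minus strand, with its CRX letters starting 219 bases before, and the *Cpsf6* window is chr10:117376974-117377223 on the minus strand, with its CRX letters starting 137 bases before.
Calml4: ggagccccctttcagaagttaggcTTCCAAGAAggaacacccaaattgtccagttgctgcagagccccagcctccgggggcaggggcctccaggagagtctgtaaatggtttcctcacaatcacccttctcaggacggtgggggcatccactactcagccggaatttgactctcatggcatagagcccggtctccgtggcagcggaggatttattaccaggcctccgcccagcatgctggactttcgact
Pfkp: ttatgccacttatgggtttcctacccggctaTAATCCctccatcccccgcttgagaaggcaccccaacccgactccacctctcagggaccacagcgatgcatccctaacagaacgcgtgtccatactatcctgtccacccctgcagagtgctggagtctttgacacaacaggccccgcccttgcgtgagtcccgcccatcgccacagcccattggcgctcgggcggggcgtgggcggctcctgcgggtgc
Cpsf6: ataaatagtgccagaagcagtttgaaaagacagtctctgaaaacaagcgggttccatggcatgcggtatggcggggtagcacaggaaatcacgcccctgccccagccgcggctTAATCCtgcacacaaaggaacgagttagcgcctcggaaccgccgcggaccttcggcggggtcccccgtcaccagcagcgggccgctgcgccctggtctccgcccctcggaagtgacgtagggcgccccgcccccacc

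Which probe sets lay lower at day 14 differed by the kind of sequence that they were designed on. Of the 5897 probe sets that name 1 gene and were designed on a RefSeq transcript, 36.1% were higher and 10.6% lower without overlap. Of the 17505 designed on an expressed sequence tag, a single-pass read often from the far 3′ end or an unspliced or rare form of a transcript, 24.1% were higher and 21.7% lower. Of the 9160 that name no gene, 24.3% were higher and 23.3% lower. The lower probe sets with a gap of 2-fold or more followed the same order, with 1 among the RefSeq class (0.170 per 1000), 49 among the tag class (2.80 per 1000) and 47 among those that name no gene (5.13 per 1000). The median difference of the RefSeq class was 0.08 on day 14 replicate 1 and 0.13 on day 14 replicate 2, and of the tag class 0.00 and 0.04, so the tag class lay below the RefSeq class on both arrays. The *Gapdh* 3′ minus 5′ values given above differ strongly between these arrays, and their part in the contrast between classes was not tested.

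**Figure D2:**
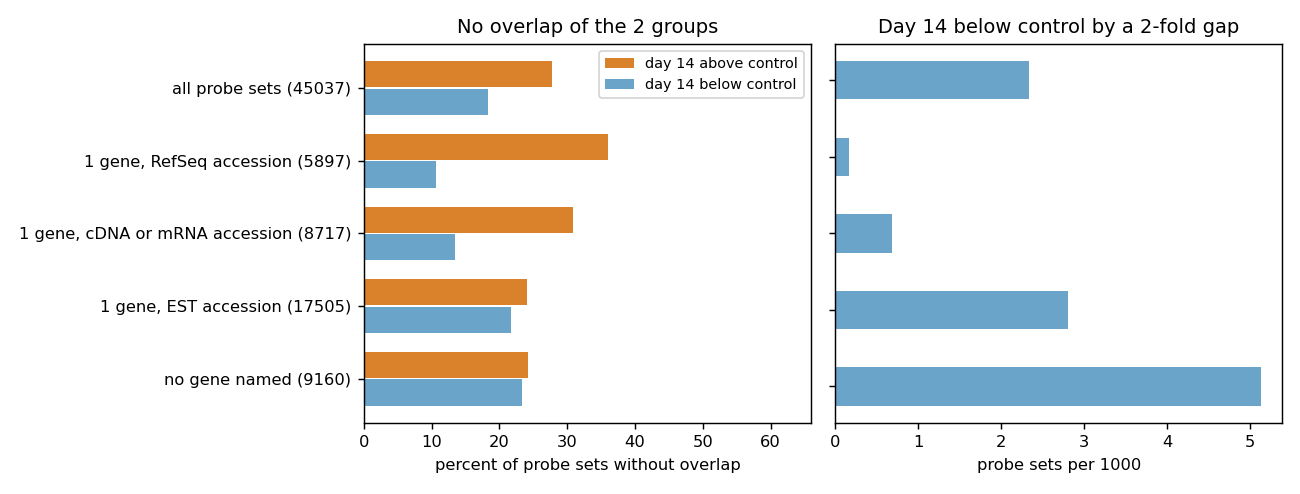
Share of probe sets higher and lower without overlap between the 2 day 14 and 2 control arrays (left, in percent), and lower probe sets with a gap of 2-fold or more per 1000 (right), by the kind of sequence that the probe set was designed on, with the number of probe sets in brackets. Probe sets on expressed sequence tags and those naming no gene have the larger shares on the lower side, and those on RefSeq transcripts the smaller.

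Probe sets of 1 gene often disagreed. Of the 9010 genes with more than 1 probe set, 4501 had a probe set higher without overlap, 3212 had one lower, and 948 (10.5%) had both. The 57 lower probe sets with a 2-fold gap that name 1 gene belonged to 53 genes, and 49 of these genes had 180 other probe sets. Of the 180, 109 (60.6%) were lower without overlap and 6 were higher, and their median difference was -0.48. Some genes, among them nuclear RNAs, were lower as a whole. *Malat1*, a long noncoding RNA of nuclear speckles, was lower in 7 of 7 probe sets, by -1.52 to -0.56. *Meg3*, an imprinted long noncoding RNA of neurons, was lower in 11 of 11, by -1.85 to -0.70. *Rbm39* was lower without overlap in 9 of 12.

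**Figure D3:**
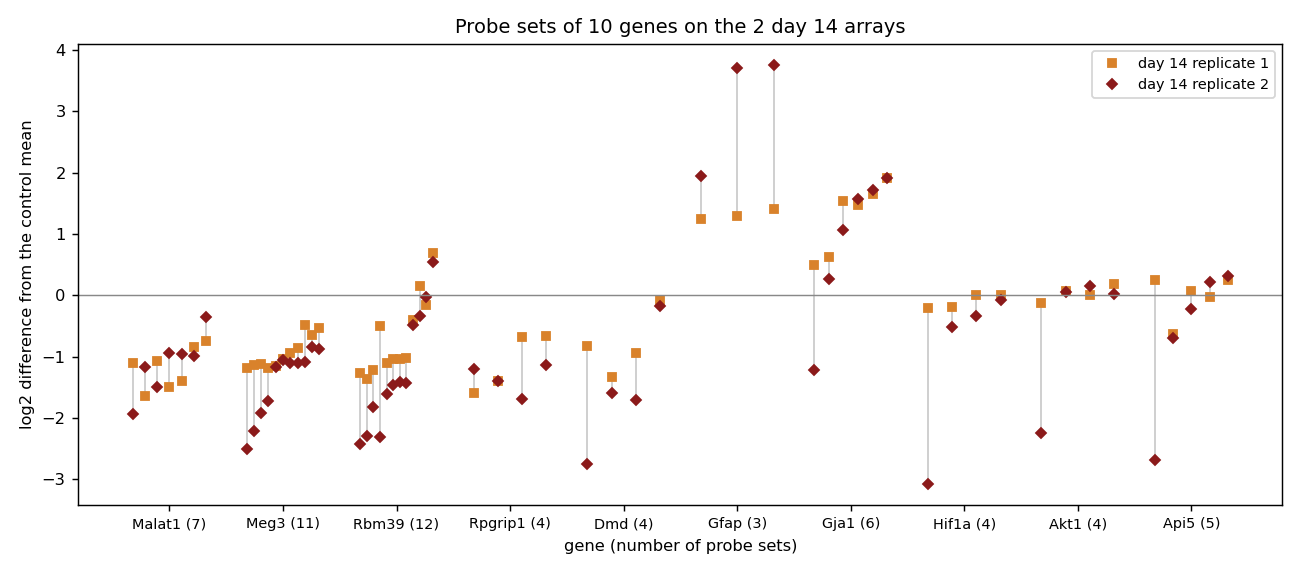
Difference of each day 14 array from the control mean (log2 units) for every probe set of 10 genes, with the number of probe sets in brackets and a line joining the 2 arrays of a probe set. *Malat1*, *Meg3* and *Rpgrip1* lie below 0 in every probe set on both arrays, while *Hif1a*, *Akt1* and *Api5* each have 1 probe set far below 0 on day 14 replicate 2 and not on day 14 replicate 1.

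Gliosis and acute phase genes stood apart from genes at large. Of 38 measured, 30 were higher and 3 lower without overlap, and their median difference was 0.75, with 0.32 on day 14 replicate 1 and 1.14 on day 14 replicate 2. Without replicate 2, 31 lay above both controls, where 43.9% of all genes did. *Lcn2*, an iron carrier of the acute phase, read -0.49 and -0.82 on the controls and 0.26 and 1.71 at day 14, a difference of 1.64 ± 0.78. *Serpina3n*, a secreted protease inhibitor, read -1.96 and -0.15 on the controls and 0.42 and 1.21 at day 14. Both genes were higher on each day 14 array than on either control. The 3 lower members were *Tnc*, an extracellular matrix glycoprotein (-0.17 ± 0.15), *Il6st*, the shared gp130 receptor chain (-0.28 ± 0.26), and *Egfr*, the epidermal growth factor receptor (-0.14 ± 0.13).

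Genes of gp130 and JAK-STAT signaling lay on both sides. Of 34, 14 were higher and 7 lower, with a median of 0.11. The feedback inhibitor *Socs3* read -0.08 and -0.23 on the controls and 0.33 and 2.24 at day 14, with 3 of 3 probe sets higher. The receptor chain *Osmr* read -0.16 and -0.13 on the controls and 0.23 and 0.41 at day 14. The ligand *Lif* differed by 0.31 ± 0.16. The kinase *Jak1* was lower in 3 of 3 probe sets, at 0.13 and 0.42 on the controls and -0.08 and -0.38 at day 14. The shared receptor chain *Il6st*, given above, was also on the lower side. *Edn2*, the endothelin that photoreceptors release under stress, read -0.63 and -0.06 on the controls, 0.01 on day 14 replicate 1 and 3.12 on day 14 replicate 2, so its difference of 1.92 ± 1.43 came almost wholly from 1 array.

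Müller glia identity genes lay on the other side from gliosis genes. Of 21, 3 were higher and 7 lower, and the median was -0.10. *Glul*, the glutamine synthetase that clears glutamate, read 0.07 and 0.03 on the controls and -0.03 and -0.89 at day 14. *Aqp4*, the water channel of glial endfeet, read -0.02 and 0.37 on the controls and -0.14 and -0.99, and *Slc1a3*, the glial glutamate transporter, 0.01 and 0.10 on the controls and -0.11 and -0.47. All 3 were lower without overlap, with most of the distance on day 14 replicate 2.

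Microglia and macrophage markers had a median of 0.42, with 17 of 31 higher and 0 lower without overlap. The medians of the day 14 arrays were 0.15 and 0.88. *Tyrobp*, the signaling adaptor of microglial receptors, read -0.22 and -0.24 on the controls and 0.14 and 2.24 at day 14, a difference of 1.42 ± 0.63. *Fcer1g*, an Fc receptor chain, read -0.25 and -0.55 on the controls and 0.24 and 1.29 at day 14. *Ctss*, a lysosomal protease of microglia, read -0.28 and -0.29 on the controls and 0.14 and 1.13. In each gene both day 14 arrays were above the controls, and replicate 2 was far above replicate 1. A larger number of microglia and more RNA in each could not be told apart in whole retina.

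Complement components were higher in 13 of 19 and lower in 2, with a median of 0.21 and day 14 medians of 0.20 and 0.34. *C1qc*, a chain of the recognition protein C1q, read -0.22 and -0.33 on the controls and 0.24 and 2.07 at day 14. *C9*, of the membrane attack complex, differed by 0.39 ± 0.14, and *C1ra*, a protease of the classical pathway, by 0.51 ± 0.38. The lower members were *Masp2*, a protease of the lectin pathway, at -0.08 ± 0.13, and *Cfp*, properdin, the stabilizer of the alternative pathway convertase, which read 0.45 and 0.75 on the controls and -0.26 and -0.38 at day 14. The difference of *Cfp* was -0.92 ± 0.20, with both probe sets lower. Among 15 complement regulators and receptors, 6 were higher and 1 lower, with a median of 0.12. *Serping1*, the C1 inhibitor, read -0.88 and -0.07 on the controls and 0.11 and 1.60 at day 14, whereas *Cd59a*, which blocks the membrane attack complex on cells, read 0.05 and 0.69 on the controls and -0.24 and -0.76, a difference of -0.87 ± 0.26.

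Other immune groups also had medians above that of all genes. Interferon-stimulated genes were higher in 15 of 36 and lower in 1, with a median of 0.30, but the medians were 0.02 on day 14 replicate 1 and 0.69 on day 14 replicate 2. *Ifitm2*, a membrane protein that blocks viral entry, was high on both, at -0.44 and 0.04 on the controls and 0.62 and 0.65 at day 14, a difference of 0.83 ± 0.18. *Cxcl10*, a chemokine made under interferon, read -0.06 and -0.07 on the controls and -0.05 and 1.13 at day 14, so on replicate 1 it lay at the control level. Antigen presentation genes of the major histocompatibility complex were higher in 9 of 18 and lower in 0 (median 0.31), with *B2m*, the shared light chain of class I, at -0.57 and -0.10 on the controls and 0.10 and 0.49 at day 14. Chemokines and cytokines were higher in 19 of 30 and lower in 1 (median 0.21). *Tnfrsf1a*, the main receptor of tumor necrosis factor, read -0.07 and -0.09 on the controls and 0.22 and 1.17 at day 14, and *Tgfb2*, the lower member, differed by -0.34 ± 0.32. Toll-like receptor and NF-kB genes were higher in 12 of 36 and lower in 3 (median 0.12), a share of higher members close to that of all genes, and the medians were 0.00 on day 14 replicate 1 and 0.23 on day 14 replicate 2. *Bcl3*, a nuclear regulator of NF-kB, read -0.47 and -0.17 on the controls and 0.40 and 2.41 at day 14. Coagulation and fibrinolysis genes were higher in 11 of 31 and lower in 1 (median 0.14).

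Immediate early genes, which neurons and glia switch on within minutes of a stimulus, were higher in 15 of 32 and lower in 1, with a median of 0.25. *Junb* read -0.19 and -0.44 on the controls and 0.44 and 1.21 at day 14, a difference of 1.14 ± 0.36. *Fos* read 0.16 and -0.16 on the controls and 0.84 and 0.83 at day 14. For *Fos* the day 14 arrays were nearly equal and both above the controls, and the difference was 0.84 ± 0.48.

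**Figure D4:**
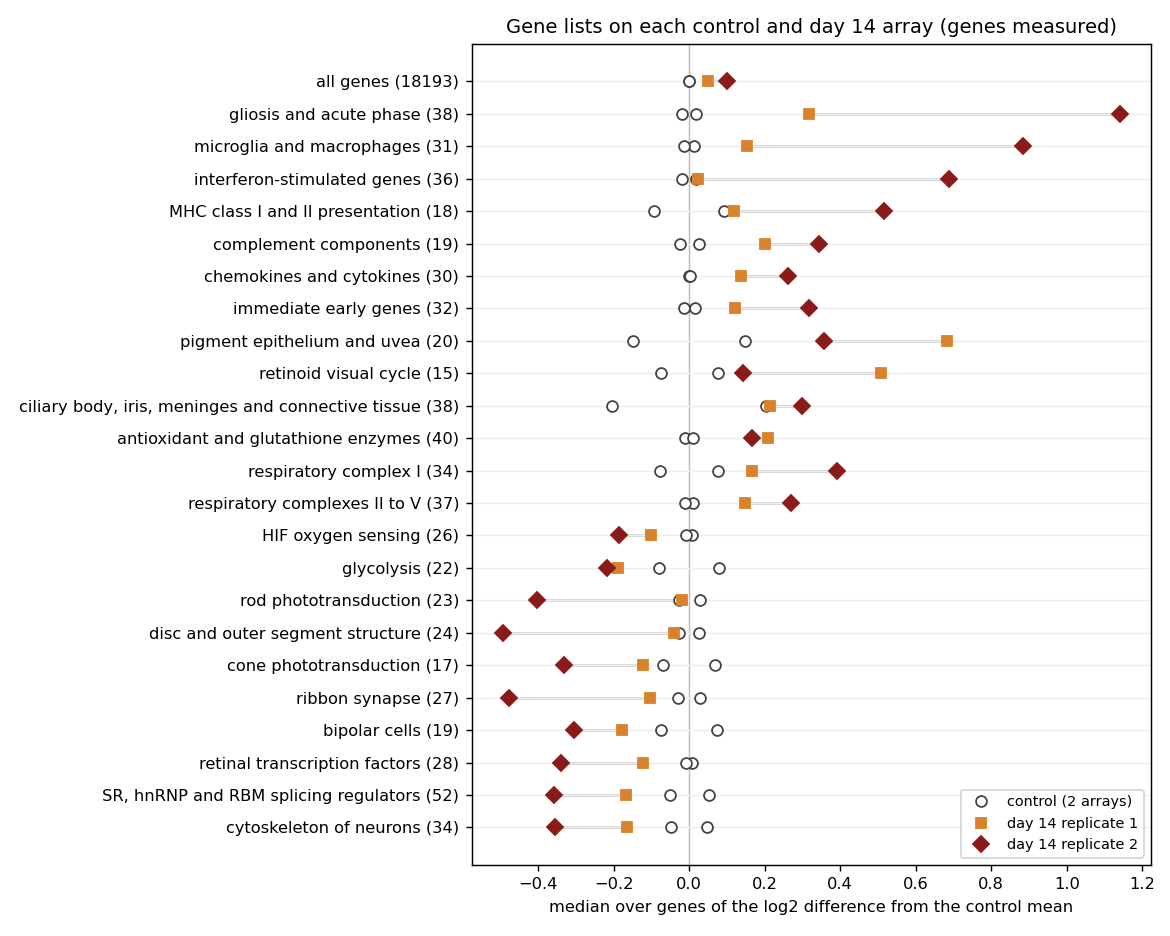
Median difference of gene means from the control mean (log2 units) for 23 gene lists and for all genes, with each of the 2 control and 2 day 14 arrays as a point and the number of genes in brackets. Gliosis and microglia lie far to the right on day 14 replicate 2 and less so on replicate 1, while ribbon synapse, splicing regulators, cytoskeleton and glycolysis lie to the left of the median of all genes (0.08).

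Photoreceptor genes were more often lower than genes at large. Of 23 rod phototransduction genes, 1 was higher and 11 lower without overlap, with a median of -0.23 that split into -0.02 on day 14 replicate 1 and -0.40 on day 14 replicate 2. Without replicate 2, 7 lay above and 11 below both controls, where 25.6% of all genes lay below. *Samd7*, a regulator of rod gene silencing, read 0.14 and 0.19 on the controls and -0.63 and -0.98 at day 14, a difference of -0.97 ± 0.24. *Rgs9bp*, the anchor of the complex that ends the light response, read 0.26 and 0.58 on the controls and -0.26 and -0.95 at day 14. *Guca1b*, a calcium sensor of guanylate cyclase, read 0.24 and 0.32 on the controls and -0.34 and -0.27. These 3 were low on both day 14 arrays. Fewer rods and less RNA in each rod could not be told apart in whole retina.

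Cone phototransduction genes were higher in 1 of 17 and lower in 7 (median -0.13). *Arr3*, cone arrestin, read 0.13 and 0.36 on the controls and 0.00 and -0.31 at day 14, with 2 of 3 probe sets lower. *Thrb*, the thyroid hormone receptor that sets cone opsin type, differed by -0.40 ± 0.63, and *Kcnv2*, a potassium channel subunit of photoreceptors, by -0.55 ± 0.55. The opsins *Opn1mw* and *Opn1sw* differed by 0.11 ± 0.33 and -0.51 ± 0.31.

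Disc and outer segment structure genes were higher in 1 of 24 and lower in 9, with a median of -0.30 that split into -0.04 on day 14 replicate 1 and -0.49 on day 14 replicate 2. Without replicate 2, 5 lay above and 9 below both controls. *Mak*, a kinase of the photoreceptor cilium, read 0.01 and 0.55 on the controls and -0.32 and -1.07 at day 14. *Impg1*, a proteoglycan around photoreceptors, read 0.43 and 0.38 on the controls and 0.00 and -0.93. The higher member was *Prph2*, peripherin of the disc rim, at -0.49 and -0.66 on the controls and 0.15 and 0.39 at day 14, a difference of 0.84 ± 0.36 from 1 probe set.

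Cilium, BBSome and intraflagellar transport genes were mixed, with 6 higher and 14 lower of 43 and a median of -0.09, which was 0.02 without day 14 replicate 2. The lower members included *Rpgrip1*, the scaffold of the connecting cilium, at 0.17 and 0.67 on the controls and -0.66 and -0.94 at day 14. Its difference was -1.22 ± 0.22, and its 4 probe sets were lower by -1.40 to -0.90. Its partner *Rpgr* read -0.07 and 0.44 on the controls and -0.68 and -0.82 at day 14, a difference of -0.93 ± 0.26. Both genes were low by a like amount on the 2 day 14 arrays. The 6 higher members differed by less, with *Dync2li1*, a chain of the retrograde transport motor, at 0.34 ± 0.19.

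Retinoid visual cycle genes did not follow the other photoreceptor groups. Of 15, 5 were higher and 2 lower, with a median of 0.25 and day 14 medians of 0.51 and 0.14. These shares, 33.3% higher and 13.3% lower, were close to those of all genes (33.5% and 15.2%). After a further quantile normalization 2 were higher and 2 lower. The higher members were largely genes of pigment epithelium, such as *Rgr*, a retinal G protein coupled receptor, at 0.14 and -0.26 on the controls and 1.09 and 0.40 at day 14, and *Rdh5*, a retinol dehydrogenase, at 0.18 and -0.18 on the controls and 0.83 and 0.29. The lower ones were *Rbp3*, the retinoid carrier that photoreceptors secrete (-0.57 ± 0.19), and *Rlbp1*, the retinaldehyde carrier of Müller glia and pigment epithelium (-0.24 ± 0.13).

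Retinal transcription factors were higher in 4 of 28 and lower in 12 (median -0.19). *Neurod1*, needed for photoreceptor survival, read 0.18 and 0.25 on the controls and -0.38 and -0.55 at day 14. *Rora* was lower in 6 of 9 probe sets, with a gene mean difference of -0.68 ± 0.20. *Mef2c*, a factor of neurons and rods, was lower in 5 of 5 at -0.94 ± 0.35. The retinal disease genes that the study lists at day 14 were higher in 2 of 16 and lower in 7 (median -0.28). The study's list also holds *C3* as raised, which had no gene value here and is not among the 16. That list was chosen on these samples and is no independent evidence of a direction. Usher syndrome genes were higher in 2 and lower in 2 of 8 (median 0.10), with *Pcdh15*, a link protein of photoreceptor and hair cells, at -0.67 ± 0.27 and *Whrn*, a scaffold, at 0.31 ± 0.27.

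At the first synapse of the retina, ribbon synapse genes were higher in 1 of 27 and lower in 14, with a median of -0.34. Without day 14 replicate 2 the counts were 1 above and 15 below both controls, so the direction was present on replicate 1 too, with a median of -0.10 against -0.48. *Rims2*, an active zone scaffold, read 0.19 and 0.20 on the controls and -0.21 and -0.34 at day 14. *Erc2*, a protein of the ribbon, read 0.14 and 0.06 on the controls and -0.25 and -0.23. *Syt1*, the calcium sensor of release, read 0.01 and 0.80 on the controls and -0.27 and -1.41. The first 2 of these had like values on both day 14 arrays, and *Syt1* did not.

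Bipolar cell genes were higher in 0 of 19 and lower in 9 (median -0.17). *Prkca*, the kinase of rod bipolar cells, read 0.21 and 0.24 on the controls and -0.15 and -0.72 at day 14, with 3 of 3 probe sets lower. *Otx2*, a homeobox factor of photoreceptors and bipolar cells, read 0.13 and 0.27 on the controls and -0.13 and -0.86. The other inner neurons showed no such lean. Amacrine genes were higher in 5 of 21 and lower in 4 (median 0.03), horizontal cell genes higher in 2 and lower in 2 of 12 (median -0.10), and ganglion cell genes higher in 9 and lower in 4 of 22 (median -0.05). Among amacrine genes *Penk*, the enkephalin precursor, read -2.10 and 0.06 on the controls and 1.82 and 0.67 at day 14, so the controls were themselves far apart. Among ganglion cell genes *Sprr1a*, known from axon injury, read -0.33 and -0.11 on the controls and 0.40 and 0.26 at day 14, and the injury factor *Atf3* 0.07 and -0.10 on the controls and 0.42 and 1.25.

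Neurotransmitter receptor groups lay near 0. Glutamate receptors were higher in 3 and lower in 6 of 21 (median -0.02), with *Gria2*, the subunit that makes AMPA receptors tight to calcium, lower in 3 of 3 probe sets at -0.96 ± 0.44. GABA and glycine receptors were higher in 1 and lower in 4 of 17 (median 0.03), and connexins and pannexins were higher in 5 and lower in 1 of 13 (median 0.16). The medians of the ganglion cell and glutamate receptor lists became 0.06 and 0.03 after a further quantile normalization, so they carry no direction. Neuronal cytoskeleton and motor genes were higher in 5 and lower in 19 of 34 (median -0.27), with *Kif5b*, a kinesin heavy chain, lower in 6 of 6 probe sets (-0.84 ± 0.23) and *Macf1*, a linker of microtubules and actin, lower in 3 of 3 (-0.98 ± 0.22). The dystrophin complex, which anchors the photoreceptor terminal, was higher in 2 and lower in 9 of 21 (median -0.10). *Dmd*, dystrophin itself, read 0.10 and 0.24 on the controls and -0.62 and -1.39 at day 14, with its 4 probe sets lower by -1.79 to -0.13.

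Genes of tissues around the retina were read as a check on dissection. Of 20 pigment epithelium and uvea genes, 9 were higher and 0 lower, with a median of 0.60, and the array medians were -0.15 and 0.15 on the controls and 0.68 and 0.36 at day 14. The defining pigment genes did not separate the groups, since 1 control was as high as the day 14 arrays. *Tyrp1* read -1.74 and 1.35 on the controls and 1.14 and 0.79 at day 14, and *Pmel* -1.53 and 1.45 on the controls and 0.88 and 1.07. Of 38 genes of ciliary body, iris, meninges and connective tissue, a list added after the values were seen, 17 were higher and 0 lower (median 0.24), with array medians of -0.20 and 0.20 on the controls and 0.22 and 0.30 at day 14. *Zic1*, a factor of meninges, differed by 1.09 ± 0.35, *Ackr3*, a chemokine receptor, by 1.07 ± 0.28, and *Slc6a13*, a GABA transporter of meninges, by 0.86 ± 0.41. The 17 became 18 without control replicate 1 and 32 without control replicate 2. The part of surrounding tissue in the higher values of *Best2*, *Calml4*, *Slc26a7*, *Gsta2*, *Gpx3* and the retinoid genes was not tested.

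Lens genes varied within groups more than between them. Their array medians were -1.04 and 1.04 on the controls and 0.74 and -0.40 at day 14, with 2 higher and 0 lower of 19, and *Cryaa*, α-crystallin, read -3.03 and 3.45 on the controls and 1.77 and -1.77 at day 14. Cornea and conjunctiva genes were higher in 2 and lower in 3 of 22 (median -0.15), blood genes higher in 4 and lower in 0 of 10 (median 0.20), and muscle genes higher in 4 and lower in 0 of 19 (median 0.16). Of 4 sex-linked genes, read because the pools held both sexes, 0 were higher and 1 lower (median -0.20).

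Antioxidant and glutathione enzymes were higher in 21 of 40 and lower in 3, with a median of 0.20 that was like on both day 14 arrays, 0.21 and 0.17. *Mgst1*, a membrane glutathione transferase, read -0.53 and 0.04 on the controls and 0.42 and 0.45 at day 14. *Gpx3*, the secreted glutathione peroxidase, read -1.31 and 0.57 on the controls and 1.40 and 1.0. *Nqo1*, a quinone reductase switched on by NRF2, read -0.29 and -0.25 on the controls and 0.56 and -0.05. *Nfe2l2*, the gene of NRF2, differed by -0.17 ± 0.15, and *Gclc*, which makes the precursor of glutathione, by -0.12 ± 0.12. The transferase family with symbols starting Gst was higher in 8 and lower in 0 of 19 (median 0.21).

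Genes that answer to oxygen through hypoxia-inducible factor were higher in 4 and lower in 9 of 26 (median -0.15), with day 14 medians of -0.10 and -0.19. *Kdm3a*, a histone demethylase and target of the factor, read 0.73 and 0.40 on the controls and -0.16 and -0.55 at day 14, a difference of -0.92 ± 0.28. *P4ha1*, a collagen prolyl hydroxylase, read 0.36 and 0.28 on the controls and -0.13 and -0.80. *Ddit4*, an inhibitor of mTOR made under low oxygen, read 0.61 and 0.24 on the controls and -0.01 and -0.09. *Vegfa*, the vessel growth factor, read 0.01 and 0.46 on the controls and -0.15 and -0.50 at day 14, a difference of -0.56 ± 0.21. Of the group *Hmox1*, heme oxygenase, was on the higher side at 0.43 ± 0.26. The first 4 of these genes were below both controls on each day 14 array, and *Hmox1* was above them.

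Glycolytic enzymes were higher in 1 and lower in 9 of 22 (median -0.21), with day 14 medians of -0.19 and -0.22. Beside *Pfkp*, *Pfkl* read 0.72 and 0.15 on the controls and -0.09 and -0.18 at day 14, with 3 of 3 probe sets lower. *Pkm*, pyruvate kinase, read 0.19 and 0.14 on the controls and -0.09 and -0.55, and *Pgam1*, phosphoglycerate mutase, 0.53 and 0.19 on the controls and -0.02 and -0.33. The enzyme on the higher side was *Ldhb*, a lactate dehydrogenase subunit, at 0.28 ± 0.20.

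Respiratory chain genes lay on the opposite side. Complex I was higher in 22 of 34 and lower in 2 (median 0.26, day 14 medians 0.17 and 0.39), and complexes II to V were higher in 23 of 37 and lower in 2 (median 0.19, day 14 medians 0.15 and 0.27). *Ndufs8*, a complex I subunit, was higher in 6 of 6 probe sets, at -0.06 and -0.26 on the controls and 0.15 and 0.25 at day 14. *Atp5a1*, of the ATP synthase, read 0.03 and 0.01 on the controls and 0.29 and 0.41. *Sdha*, the large subunit of complex II, was among the lower exceptions at -0.36 ± 0.14, while *Sdhb* and *Sdhd* differed by 0.25 ± 0.11 and 0.33 ± 0.13. Mitochondrial dynamics and biogenesis genes were mixed, higher in 8 and lower in 4 of 25 (median 0.02), with *Tfam*, which packs mitochondrial DNA, at 0.29 ± 0.17 and *Ppargc1a*, the coactivator of mitochondrial growth, at -0.56 ± 0.18.

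Vessel genes did not lie on 1 side. Endothelium and vessel genes were higher in 6 and lower in 4 of 30 (median 0.03), with *Rgs5*, a pericyte marker, at 0.10 and 0.11 on the controls and -0.49 and -0.75 at day 14. *Flt1*, a receptor of VEGF, was lower in 3 of 4 probe sets (-0.45 ± 0.17). Angiogenesis regulators were higher in 13 and lower in 3 of 28 (median 0.13), with *Ndp*, norrin, at -0.36 and -0.21 on the controls and 0.01 and 0.47 at day 14.

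By the share of members lower without overlap, splicing regulators led the 56 gene lists. Of 52 SR, hnRNP and RBM genes, 2 were higher and 31 lower, with a median of -0.26 and day 14 medians of -0.17 and -0.36. Without day 14 replicate 2, 9 lay above and 33 below both controls, so the lean was present on replicate 1, and the part of RNA quality in it was not tested. *Pnisr*, an SR-rich protein of speckles, read 0.10 and 0.60 on the controls and -0.38 and -0.89 at day 14, with 7 of 7 probe sets lower. *Rbm25* read 0.08 and 0.34 on the controls and -0.38 and -0.75, with 6 of 6 lower. *Rbm6* was lower in 3 of 3 at -0.95 ± 0.34. Core spliceosome proteins did not share this, being higher in 17 and lower in 9 of 43 (median 0.08). *Snrpg*, a ring protein of the small nuclear particles, differed by 0.53 ± 0.32, and *Cwc22*, a spliceosome factor that loads the exon junction complex, by -0.90 ± 0.20.

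Long noncoding RNAs were higher in 5 and lower in 8 of 25 (median -0.09). *Malat1* read 0.50 and 0.66 on the controls and -0.61 and -0.54 at day 14, a gene mean difference of -1.15 ± 0.16. *Meg3* read 0.36 and 0.86 on the controls and -0.33 and -0.81. *Snhg11* and the host gene of a neuronal microRNA, *Mir124a-1hg*, differed by -1.32 ± 0.36 and -1.16 ± 0.32. The snoRNA host genes *Snhg5*, *Snhg6*, *Snhg8* and *Snhg12* were on the higher side, by 0.37 ± 0.18, 0.63 ± 0.30, 0.66 ± 0.29 and 0.45 ± 0.15. *Neat1*, the RNA of paraspeckles, overlapped, at -0.10 and 0.40 on the controls and 0.07 and 0.04 at day 14.

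Families defined by gene symbol and with 10 or more members gave a like picture. Of 77 families 62 had a median above 0. The median over all genes was itself above 0, at 0.08, with 11652 of 18193 gene means higher at day 14. The 5 highest medians belonged to S100 calcium-binding proteins (5 higher and 0 lower of 13, median 0.37), mitochondrial ribosomal proteins (42 and 1 of 76, median 0.22), histocompatibility genes with symbols starting H2 (8 and 0 of 23, median 0.21), glutathione transferases and cytosolic ribosomal proteins (32 and 0 of 49, median 0.20). S100 genes had medians of 0.06 and 0.59 on the 2 day 14 arrays, and ribosomal proteins 0.17 and 0.27, so the first rested on replicate 2 and the second did not. The shares of higher members in the S100 family (38.5%) and the H2 family (34.8%) were close to that of all genes (33.5%). The 5 lowest belonged to phosphodiesterases (6 higher and 5 lower of 25, median -0.10), chromatin remodellers (4 and 13 of 32, median -0.09), histone lysine methylases and demethylases (3 and 14 of 36, median -0.09), ubiquitin-specific proteases (6 and 18 of 51, median -0.06) and regulators of G protein signaling (4 and 8 of 21, median -0.06). On day 14 replicate 1 the medians of phosphodiesterases and regulators of G protein signaling were 0.00 and 0.03. The median of the regulators became 0.01 after a further quantile normalization. For both families and for ubiquitin-specific proteases the array medians of day 14 and control overlapped. The share of lower phosphodiesterases (20%) was near that of all genes (15.2%). Zinc finger genes with symbols starting Zfp were higher in 78 and lower in 102 of 336 (median -0.01).

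Stress and death groups lay near genes at large. Heat shock proteins and cochaperones were higher in 12 and lower in 8 of 42 (median 0.00), with *Bag3*, a cochaperone of stressed cells, at 0.53 ± 0.34 and *Hspa4l*, an HSP110 relative, at -1.03 ± 0.31 with 4 of 5 probe sets lower. Unfolded protein response genes were higher in 8 and lower in 4 of 29 (median 0.10), autophagy and lysosome genes higher in 12 and lower in 4 of 33 (median 0.05), and DNA damage and p53 target genes higher in 12 and lower in 8 of 38 (median 0.08). *Gadd45b*, a stress sensor, was higher in 3 of 3 probe sets, at -0.26 and -0.20 on the controls and 0.11 and 1.20 at day 14, and *Atm*, the kinase of double-strand breaks, lower in 2 of 2 at -0.87 ± 0.34.

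Death-promoting genes were higher in 14 and lower in 3 of 37 (median 0.14), and death-inhibiting genes higher in 9 and lower in 7 of 30 (median -0.03). *Casp1*, the protease of inflammasomes, read -0.14 and -0.31 on the controls and 0.20 and 0.31 at day 14. *Bbc3*, the p53 target PUMA, read -0.17 and -0.28 on the controls and 0.27 and 0.15. Both were higher on each day 14 array by a like amount, with differences of 0.48 ± 0.13 and 0.43 ± 0.14. *Bcl2*, the founding survival gene of its family, read 0.16 and 0.22 on the controls and 0.03 and -0.29. Genes of IGF1R, AKT, GSK3 and β-catenin signaling were higher in 6 and lower in 8 of 36 (median -0.07), circadian clock genes higher in 5 and lower in 6 of 24 (median -0.04), and sterol synthesis genes higher in 5 and lower in 2 of 21 (median -0.05).

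Of the genes that the study names for day 14, 40 were measured by 106 probe sets, of which 31 were higher and 30 lower without overlap. In 24 probe sets day 14 replicate 2 lay 1 log2 unit or more from the control mean and replicate 1 within 0.5 of it. Gene means were higher for 13 and lower for 11, and 2 genes had probe sets on both sides. *C3*, without a gene value here, is not among the 40. In several, 1 probe set was very low on day 14 replicate 2 and not on day 14 replicate 1. For *Akt1*, a survival kinase, that probe set read -0.06 and 0.43 on the controls, 0.06 on day 14 replicate 1 and -2.06 on day 14 replicate 2, while its other 3 differed by 0.06 to 0.10. For *Hif1a*, the oxygen-regulated factor, it read -0.19 and 0.98 on the controls and 0.19 and -2.68 at day 14, and the others differed by -0.36 to -0.04. *Api5*, an inhibitor of apoptosis, read -0.31 and 0.45 on the controls and 0.31 and -2.61 at day 14 in such a probe set, and *Oxr1*, an oxidation resistance gene, -0.35 and 0.53 on the controls and 0.25 and -1.89. In these 4 probe sets day 14 replicate 1 lay between the controls, so the groups overlapped. The array labelled day 3 replicate 2 was low in them too, at -2.22 for *Akt1*, -1.65 for *Hif1a*, -2.17 for *Api5* and -1.28 for *Oxr1*.

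**Figure D5:**
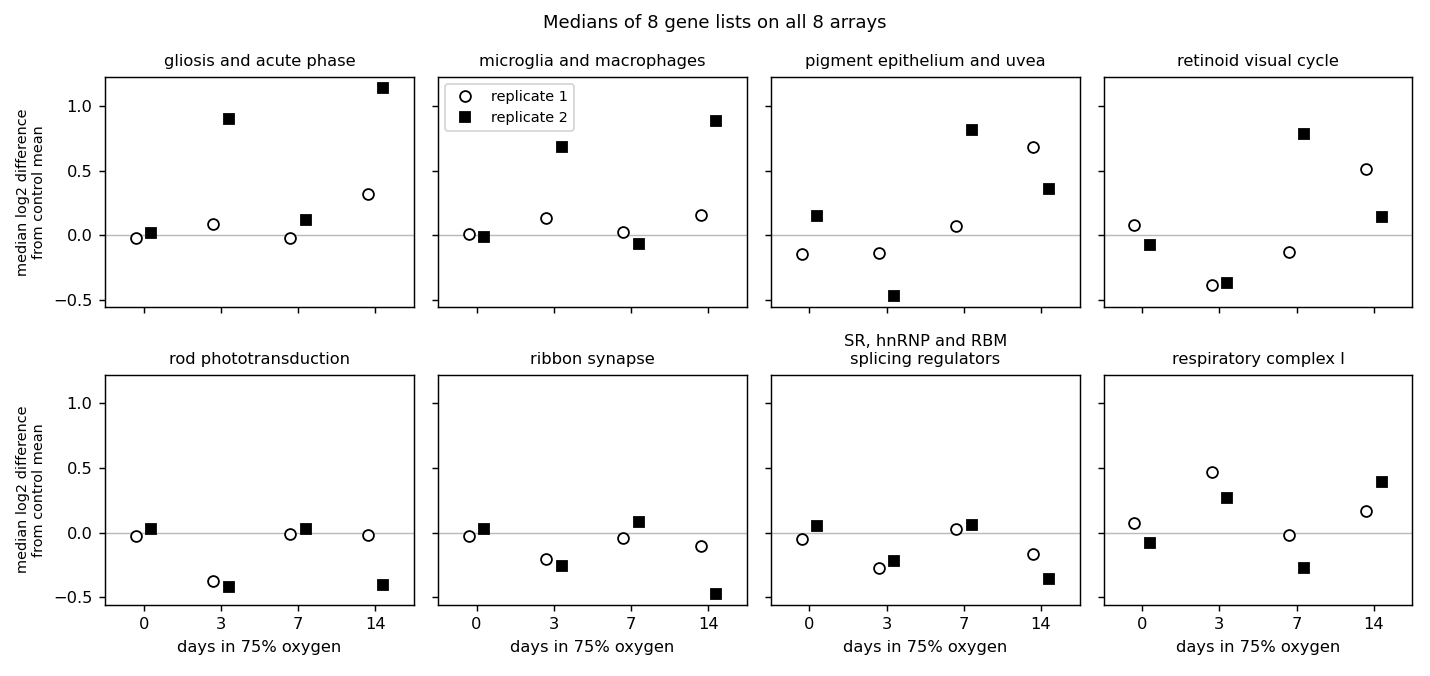
Median difference from the control mean (log2 units, vertical axis) of 8 gene lists on each of the 8 arrays, by days in 75% oxygen, with day 0 for the controls. For gliosis the second array of day 14 (1.14) and the second of day 3 (0.90) stand above the other 6, while splicing regulators lie below the controls on both day 14 arrays (-0.17 and -0.36).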

How the data were processed

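RNA from retinas was hybridised to 8 single-colour arrays, 2 for each of control and 3, 7 and 14 days in 75% oxygen. Per the labels and the submitters' processing notes, the authors summarised probe intensities with RMA, and the deposited values are on the log2 scale. In the deposited table each probe set is centred on its median over the 8 arrays (within 1e-06), so differences are kept and levels are not. No scanner file was used here, and the number of arrays limits the precision.

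Groups were taken from the sample titles. The 64 control probe sets were left out. Of the 45037 others, 34945 name 1 gene, 932 several and 9160 none in the platform annotation, and 34741 symbols were updated to RefSeq GRCm38.p6 through the Entrez ID. A gene value is the mean of its probe sets. Differences of group means were tested with limma 3.58.1 (R 4.3.3; lmFit and eBayes, 4 group means over all 8 arrays, Benjamini-Hochberg adjustment over all probe sets or genes, threshold 0.05), and their standard error is limma's. The methods' 1-factor analysis of variance was run on the control and day 14 arrays alone, without its cross-gene error model. Other steps used Python 3.11.15, numpy 2.4.6, pandas 2.3.3 and matplotlib 3.10.9. Scripts were tested on simulated data.

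The text names the 12 probe sets of 1 gene with the widest gap in each direction (1 a gene), up to 4 members of each gene list with the widest gaps in each direction, the genes that the study names for day 14, and the families of 10 or more members with the 5 highest and 5 lowest medians. Other genes named in the text were chosen after their values were seen. The comparison, its members and the 56 lists were chosen with earlier results of these data known, and 1 list, for ciliary body, iris and meninges, was added after the values were seen. A list symbol that is an older name was matched only where it is no current symbol of another gene. The values were also tried with each array's median taken away and with another quantile normalization, without each array in turn, with the replicate number as a block, with other eBayes options, with the 4 arrays of the comparison alone, and with other gene summaries, linear means or fewer probe sets.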

Additional observations from a re-analysis of the deposited data

Results flagged for a closer look

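Some gene lists lay on one side of the control mean on both day 14 arrays and on the other side on both arrays of another time. These differences between times were not tested, and both times share the control arrays. The Müller glia identity list had a median of -0.1006 at day 14, with 0.14 and 0.11 on the day 7 arrays. The retinoid visual cycle list had 0.2499 at day 14, with -0.38 and -0.37 on the day 3 arrays. The retinal disease genes that the study lists at day 14 had -0.2814, with 0.09 and 0.01 at day 7. Respiratory complexes II to V had 0.1923, with -0.06 and -0.12 at day 7, and the unfolded protein response list 0.09672, with -0.08 and -0.12 at day 7. Immediate early genes had 0.2499 at day 14, with -0.13 and -0.12 at day 7, and the dystrophin complex -0.1006, with 0.08 and 0.07 at day 7.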

How the results depend on the processing

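In limma no alternative that left the pairing aside called a probe set or a gene. The lowest adjusted p over probe sets was 0.178, after a further quantile normalization, and it was higher in every other such alternative. Each array was left out in turn as planned. Leaving out day 14 replicate 2 and day 3 replicate 2 together was a choice made after seeing the data. The quantile normalization gave 308 higher probe sets of 2-fold or more, and 23 higher and 197 lower with a 2-fold gap. Probe sets of 1 gene whose names do not end in _x_at or _s_at gave 4 and 55 with that gap, as fewer were counted. Leaving out 1 array leaves fewer arrays to separate, and the counts without overlap then ran from 17292 to 21506 higher and from 12892 to 14515 lower. Those of 2-fold or more ran from 82 to 503 higher and from 341 to 1990 lower, and those with a 2-fold gap from 19 to 258 and from 155 to 1280, with the lowest count of 2-fold differences without day 14 replicate 2 and the highest without day 14 replicate 1.

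The replicate block also called 0 probe sets, with a lowest adjusted p of 0.437 and 1292 higher and 2296 lower at an unadjusted p under 0.05. The labels share a number only, and deviations of control and day 14 arrays of the same number correlated at r = -0.38. With the numbers crossed, a fit of these 4 arrays alone called 1055 probe sets and 0 genes, a pairing chosen after seeing the data. The methods' analysis of variance called 2 probe sets.

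Of the 56 list medians, the sign changed for 2 under quantile normalization, 3 with array medians subtracted, 5 with the probe set of largest SD, and 3 to 7 when 1 array was left out. Of the 77 family medians the sign changed for 3 and 8 under these scalings and for 5 to 15 when 1 array was left out, with 15 without control replicate 1. A filter on dim probe sets, a background correction and a scan batch were not run, since the values hold no level, are already summarised and carry no scan batch here.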

Other observations

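Some families outside the retina's own pathways also lay to the higher side at day 14. The CD antigens, surface proteins of blood and other cells, were higher without overlap in 41 and lower in 1 of 71, with a median of 0.15. Ligands and receptors of the tumor necrosis factor superfamily were higher in 24 and lower in 1 of 35 (median 0.13). Claudins, the proteins of tight junctions, were higher in 15 and lower in 1 of 24 (median 0.16), and Wnt ligands and Frizzled receptors higher in 15 and lower in 0 of 30 (median 0.18). Proteasome subunits were higher in 20 and lower in 3 of 40 (median 0.14). Olfactory receptors were higher in 22 and lower in 3 of 39 (median 0.15), so a lean of this size was not particular to the other families named here. Their share of higher members, 56.4%, was also above those of antioxidant enzymes (52.5%, median 0.20) and microglia genes (54.8%, median 0.42). Gliosis, complement and respiratory chain genes had larger shares. The families of this paragraph were read after their values were seen, beside 33.5% higher and 15.2% lower and a median of 0.08 among all genes.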
